A study of Saccharomyces cerevisiae with 7 samples.

Results

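Lariat sequencing reads of Saccharomyces cerevisiae were searched for branching that joined an annotated branch point to a 5' splice site upstream of the annotated one. A joined pair of sites was a member when its branch point lay within 2 nt of the annotated branch point of a listed intron, on the same chromosome and strand, and its 5' splice site preceded the annotated one by at least 6 and under 1000 nt in the direction of transcription. The rule selected 648 of the 174421 pairs in the series. With branch points of one position summed, these were 410 upstream sites with 4484 reads, in 179 of the 280 annotated introns and 171 of the 270 genes. Both distance and branch point were fixed by the rule, whereas sequence and reads per strain were not. Position in the gene was not part of the rule but is limited by the distance.

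In the first step of splicing, the 2' hydroxyl of the branch point adenosine attacks the 5' splice site and forms a lariat. The 5' splice site is chosen by base pairing with U1 and then with U6 snRNA, and most yeast introns start with GTATGT. Prp8 is the large protein at the heart of the spliceosome, and its RNaseH domain moves between conformations during splicing. A 5' splice site upstream of the annotated one places exon sequence in the lariat and shortens the first exon of the spliced RNA. Debranching by Dbr1 normally destroys lariats, so deletion of its gene preserves them.

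All strains were mat a with the chromosomal PRP8 replaced by LYS2, the DBR1 gene disrupted by a Kan marker and markers his3, leu2, ura3 and lys2, and they lived on a pRS313 plasmid with either wild-type PRP8 or a mutant allele. The plasmid carried PRP8-WT, prp8-V1860N, prp8-V1860D, prp8-N1869D or prp8-V1870N. Cells were grown in rich media at 30C, and total RNA of whole cells lost its ribosomal RNA to Ribo-Zero and its linear RNA to digestion by RNase R. There was 1 library per strain, except that prp8-N1869D had 2 further libraries labelled as technical replicates, which were summed and are called its second sample; both together are called the prp8-N1869D pair. The reference is a single PRP8-WT sample that also lacks DBR1, so no strain difference could be tested. Spread between samples could be seen only within the prp8-N1869D pair, and as the labels do not say that they came from separate cultures, this spread may be technical. Lariat reads ranged from 1222720 in prp8-N1869D to 3517283 in PRP8-WT, and annotated reads from 993122 to 3042633. All intervals are exact or asymptotic 95% intervals that treat reads as independent counts and cover no spread between cultures. Reads without molecular identifiers are not independent molecules, so the intervals may be too narrow.

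Sequences at a choice of upstream sites that the results turn on are shown with those of the annotated site of the same intron. They range from sites equal to the consensus, in MTR2 and VMA9, to the NCB2 site, which shares little beyond GT with it, and the ECM33 site, which lacks GT. Each run covers 8 bases before the splice site and 14 bases after it, with the first 6 intron bases in capitals, read from build R64 on the strand of the gene.
LSM2 upstream by 56 nt, chrII:170613-170634, plus strand: cctagcaaGTATGCttttcttc
LSM2 annotated, chrII:170669-170690, plus strand: tcgtagagGTATGTtcataatg
MTR2 upstream by 50 nt, chrXI:93502-93523, minus strand: gactccctGTATGTattgcaga
MTR2 annotated, chrXI:93452-93473, minus strand: aacgtgtcGTACGTataaaacg
RPL16A upstream by 29 nt, chrIX:99401-99422, minus strand: gagaaaatGTCTGTtgaaccag
RPL16A annotated, chrIX:99372-99393, minus strand: cattgatgGTACGTaagatttt
IWR1 upstream by 104 nt, chrIV:255135-255156, minus strand: ttgttgagGTAGGCatacaaga
IWR1 annotated, chrIV:255031-255052, minus strand: ggcattatGTATGTgttgttat
ECM33 upstream by 71 nt, chrII:393102-393123, plus strand: taattttaCTATTAttccgcaa
ECM33 annotated, chrII:393173-393194, plus strand: tctagctgGTATGTacacattc
NCB2 upstream by 58 nt, chrIV:1266906-1266927, minus strand: ctaatacaGTTGTAcctattaa
NCB2 annotated, chrIV:1266848-1266869, minus strand: tcccaaggGTATGTtagttata
RPL6B upstream by 943 nt, chrXII:1027918-1027939, plus strand: tccgaatgGTATACtcttttgc
RPL6B annotated, chrXII:1028861-1028882, plus strand: cccaacaaGTATGTgtaaagat
RRT8 upstream by 147 nt, chrXV:241159-241180, minus strand: aaagtaacGTAAGTcgttggct
RRT8 annotated, chrXV:241012-241033, minus strand: cattcttaGTAAGTacatgatt
VMA9 intron 2, upstream by 158 nt, chrIII:107026-107047, plus strand: agtagtttGTATGTgtcataat
VMA9 intron 2, annotated, chrIII:107184-107205, plus strand: aaccaagcGTATGTgcaacatt

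Reads were concentrated close to the intron. The median distance was 120 nt over sites and 71 nt over reads, and the 251 sites under 200 nt away held 3525 reads, 78.6% of the total. Among bins that widen with distance, the one from 50 to 99 nt held the most reads, 1670 at 68 sites. The narrower bin from 6 to 19 nt held 511 reads at 51 sites. It had the largest share of positions with reads, 1.30%, against 0.486% from 50 to 99 nt. From 200 nt to under 500 nt there were 240 reads at 65 sites. The 94 sites at 500 nt and beyond held 719 reads, of which the RPL16B site alone gave 131. Reads were also unevenly spread over sites. The 12 sites with the most reads held 43.9% of all reads, the 45 sites seen in all 6 samples held 73.5%, and 189 sites had a single read.

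**Figure D1:**
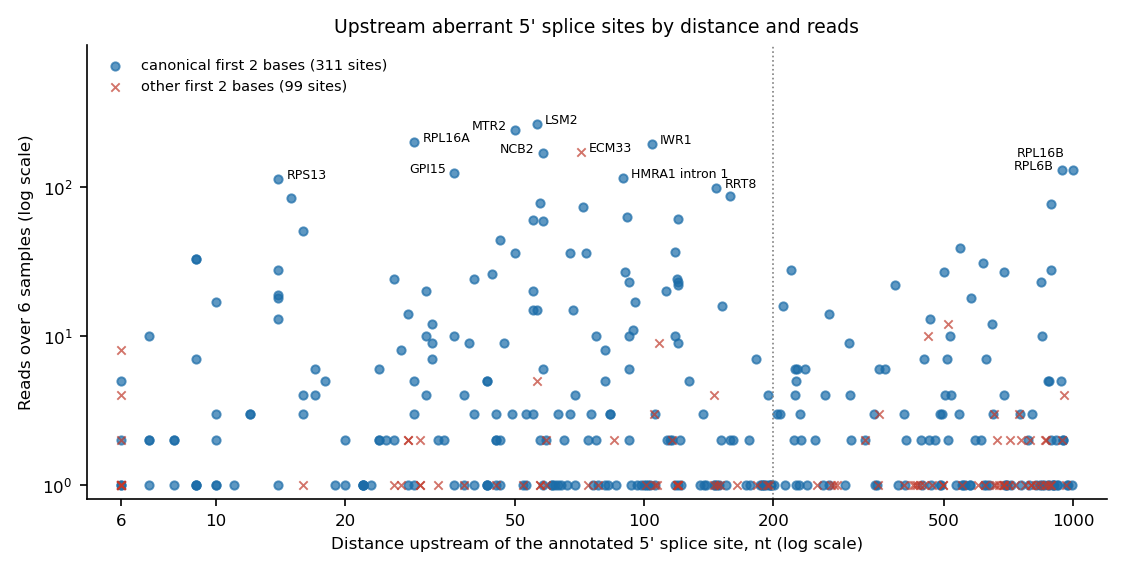
Each point is 1 of the 410 upstream sites, by its distance from the annotated 5' splice site in nt and its reads summed over 6 samples, both on log scales, with a dotted line at the 200 nt limit. Sites with many reads lie mostly within 200 nt and begin with the canonical 2 bases, except ECM33, while RPL16B and RPL6B stand alone with 131 reads each near the far end.

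At the near edge of the window, 15 sites at 6 nt had 31 reads, while 23 sites just outside it at 5 nt had 1110 reads. GCR1 gave 914 of those at 5 nt and ERV41 123. At the far edge, RPL16B, 1 nt inside the limit of 1000 nt, had 131 reads and RPL28 at 996 nt had 1, and the nearest sites outside, at 1000 and 1015 nt, had 1 read each. The lariats implied by the upstream sites had a median length of 376 nt over sites and 196 nt over reads, against 112.5 nt over introns and 305 nt over reads for annotated introns. Under the rule, an upstream lariat is always longer than the annotated lariat of its own intron. The medians also depend on which introns hold the sites and reads, so they do not compare lariats of one intron. Lariats of sites inside introns had medians of 119 and 114 nt. The part of lariat length in the recovery of reads was not tested.

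Most upstream sites had the first 2 bases of an intron. GT stood at 311 of the 410 sites, 75.9%, and at those sites lay 92.4% of the reads, whereas 5.14% of all 278320 positions in the same windows are GT. Of the 76 sites with at least 10 reads, 73 began with GT. The whole consensus GTATGT occurred at 28 sites with 552 reads, and at 1 site with 2 reads among the 553 aberrant sites inside introns. Beyond the first 2 bases, A at the third base was present in 66.6% of the upstream sites with GT and in 28.5% of all GT positions upstream of introns, and G at the fifth in 41.8% and 18.0%.

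The share of positions with lariat reads was larger with the number of consensus bases. Of GT positions under 200 nt from the intron, 2.64% with 2 matching bases had reads, 4.52% with 3, 12.4% with 4 and 29.1% with 5. All 8 positions with GTATGT at that distance had reads. They were in MTR2, RPS30A, GIM4, CIN2 and ARP2, and at the first 5' splice sites of DYN2, TAD3 and VMA9, which are annotated themselves. CIN2 and ARP2 had 1 read each. At 200 nt and beyond the shares were 0.312% with 2 bases, 5.09% with 5 and 33.9% with 6, or 20 of 59 positions. Positions without GT had reads in 0.0375% of cases. These shares are pooled over introns, which differ in abundance, and reads per position depend on depth.

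**Figure D2:**
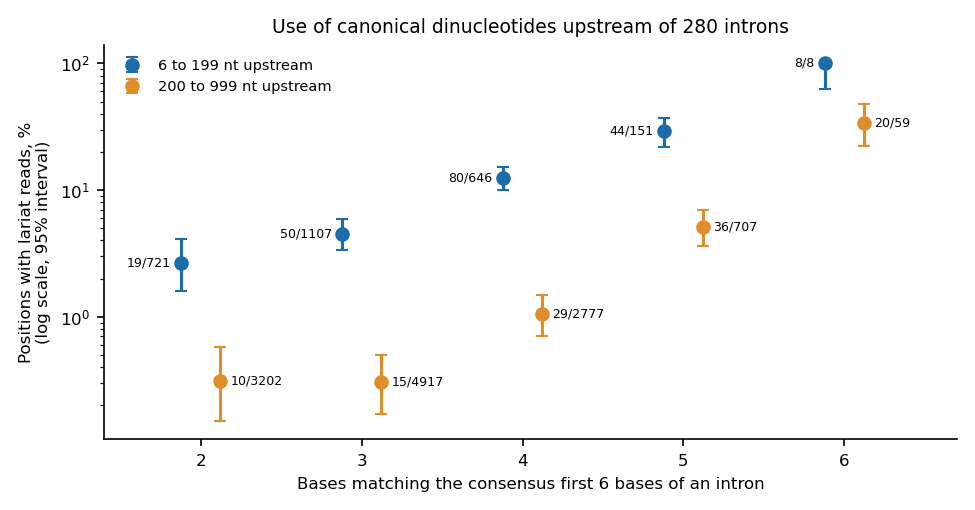
Percent of GT positions upstream of the 280 introns that had any lariat read (log scale), by the number of the 6 intron start bases that match the consensus, for positions under 200 nt (blue) and at 200 nt and beyond (orange). Bars are exact 95% intervals and labels give positions with reads over all positions; from 3 matching bases on, the share increases with every further match at both distances, to 8 of 8 and 20 of 59.

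The GT share was compared with that of aberrant sites inside introns in each sample. Of the upstream sites seen in a sample, 85.7% ± 4.50 (SD, n = 6 samples) began with GT, against 77.4% ± 3.38 inside introns. The share was higher upstream in 6 of 6 samples by a mean of 8.30 percentage points, with an exact sign-flip permutation p of 0.03125, two-sided, which is the smallest that 6 samples allow. After Benjamini-Hochberg adjustment over 3 comparisons p was 0.09375, which did not pass 0.05; one of them, on the branch coordinate, is not reported as a test because the rule used that value. Weighted by reads, the difference was -1.31 points, with 3 of 6 samples higher upstream and an exact permutation p of 0.5625. The samples share sites and 2 are of the same strain, so they are not independent draws of sites.

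Among the 99 sites without GT, ECM33 at 71 nt held 174 of the 343 reads. ECM33, a cell wall protein with a lipid anchor, was the only such site among the 12 with the most reads. Its upstream site starts CTATTA, and 2673 reads lay at its mirror image on the opposite strand with the ends swapped, so the strand of its reads is uncertain. RPL35A at 511 nt had 12 reads at GAATCA and RPL42B at 459 nt had 10 at GCAATT, and neither had mirror reads. Of the 357 sites more than 20 nt upstream, 171 had some mirror reads and 63 had more mirror than own reads, together 324 own reads. How strand was assigned is not given in the sources used here, and the part of mirror images in these counts was not tested.

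A distance of at most 2 nt from the annotated branch point was required by the rule and by the annotated counts alike, so branch positions are only described. Of upstream reads, 46.9% lay at the exact annotated branch coordinate and 42.0% lay 1 nt before it, against 42.7% and 47.4% of annotated reads. The share at the exact coordinate averaged 46.4% ± 3.2 upstream and 42.8% ± 0.514 for annotated lariats (SD, n = 6 samples). Weighting annotated reads by the upstream reads of each intron turned the difference to -0.69 points.

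By location, 263 sites with 2805 reads lay before the start codon and 122 with 1447 reads in the gene's own coding sequence. Their median distances were 227 and 32 nt. Another 9 with 196 reads lay in an earlier intron of the gene. A further 13 with 28 reads lay upstream of introns of RNA genes, at a median of 689 nt. The share of all window positions in each location was not determined, so the counts do not show a preference for any location. Of the sites in coding sequence, 48 removed a multiple of 3 bases, 43 left a remainder of 1 and 31 a remainder of 2. Of the 263 sites before the start codon, 24 lay inside another gene on the same strand. They include the RPL16B site at the end of the window, inside FKH2, a forkhead transcription factor gene, and RPL20B at 888 nt, inside SPS4, with 28 reads.

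Some upstream sites overlapped the start codon. Where the G of the ATG is followed by T, the start codon ends in a GT. Of the 52 introns with such a start codon at least 6 and under 200 nt upstream, 14 had reads there, 384 in all. RPL16A had 202 of them, YNL050C, an uncharacterised gene, 85, OM14, a mitochondrial outer membrane protein, 33, RPL23B 24 and RPP1B 20. Within the same distances, a GT immediately before the ATG occurred in 3 introns and was used in LSM2, with 268 reads, and YCL012C, with 27. In the LSM2 sequence above, the capitals GTATGC contain the start codon of this protein, a subunit of the ring that binds the end of U6 snRNA. In all, 18 sites with GT had 1 or more of their first 6 intron bases in the start codon, and they held 699 reads, 15.6% of the total.

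Genes with 2 introns gave lariats that ran from the first 5' splice site to the second branch point, the product that would be made if the exon between them were skipped. Of the 10 second introns, 8 had such reads. VMA9, a small subunit of the vacuolar proton pump, had 87, SUS1, a subunit shared by a histone acetylase and a nuclear export complex, 28, DYN2, dynein light chain, 24 and TAD3, a tRNA deaminase subunit, 23. YOS1, which acts in transport from the endoplasmic reticulum, had 16, HMRA1 9, RPL7B 4 and EFM5, a methyltransferase of an elongation factor, 3. RPL7A and RPS22B had 0 reads beside 7161 and 8803 annotated reads of the second intron. MOB2, a kinase activator of cell separation, had 2 reads from the 5' splice site of RPL22B, 947 nt upstream. Another 2 reads of TAD3 and 1 of DYN2 lay within 5 nt of the first 5' splice site.

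Skipping lariats were 0.333% (0.258 to 0.422) of skipping plus annotated reads of second introns in PRP8-WT, 0.253% in prp8-V1860N, 0.223% for prp8-V1860D and 0.211% in prp8-V1870N. In prp8-N1869D the share was 0.121% (0.0678 to 0.200) and for its second sample 0.0502% (0.0229 to 0.0952). Both prp8-N1869D samples lay below the interval of PRP8-WT. VMA9 gave 39 of the 67 reads in PRP8-WT, and without it the shares were 0.236% in PRP8-WT, 0.206% and 0.0485% for the prp8-N1869D pair, and 0.247 to 0.286% in the other mutants. Then only the second prp8-N1869D sample, with 4 reads, lay below the interval of PRP8-WT, 0.157 to 0.341%.

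In a few introns with little annotated splicing, upstream sites were a large part of all branching. HMRA1 intron 1 had 127 upstream and 19 annotated reads, IWR1, which carries RNA polymerase II to the nucleus, 202 and 88, GPI15, an enzyme subunit of lipid anchor synthesis, 146 and 99, and MMS2, a ubiquitin conjugation factor, 3 and 1. These were the 4 introns with more upstream than annotated reads. HMRA1 is a silent copy of the a1 gene, and in mat a cells its reads cannot be told apart from those of the expressed copy at the mating type locus. In 14 introns upstream reads were over 10% of upstream plus annotated reads, and in 35 over 1%, while the median over the 179 introns was 0.0334%. The 10 introns with the most upstream reads held 42.4% of them. The most distinct sites, 11, lay upstream of the intron of snR17a, a U3 snoRNA gene, with 25 reads beside 594634 annotated ones, followed by RPL24B with 8 sites and RPL16A with 7.

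Ribosomal protein genes made up most annotated splicing but a minority of upstream branching. Of their 104 introns 76 had upstream sites, with 1485 reads or 33.1% of upstream reads, against 64.2% of annotated reads. RPL16A, with 213 reads, and RPL16B, with 133, had the most. In PRP8-WT upstream reads were 0.0167% (0.0150 to 0.0186) of upstream plus annotated reads in these introns and 0.0792% (0.0738 to 0.0850) in all other introns. Genes with 2 introns had 530 reads in 17 of 20 introns, led by HMRA1 and VMA9, and a share of 0.197% in PRP8-WT. Introns of snoRNA hosts had 46 reads in 5 of 11, of which RPL7B intron 1 gave 38. These lists overlap, and RPL7B is in all 3. Of the 157 introns in none of them, 89 had 2513 reads, led by LSM2 with 271 and MTR2 with 246.

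The same question was asked of each strain: how often did branching use an upstream site? Upstream reads were 0.0371% (0.0349 to 0.0393) of upstream plus annotated reads in PRP8-WT. They were 0.0498% (0.0467 to 0.0530) in prp8-V1860N, 0.0462% (0.0431 to 0.0494) for prp8-V1860D and 0.0485% (0.0451 to 0.0521) in prp8-V1870N. In prp8-N1869D the share was 0.0388% (0.0350 to 0.0428) and for its second sample 0.0359% (0.0324 to 0.0396), with 0.0368% and 0.0349% in the technical libraries. The first 3 mutants were therefore at 1.34-fold, 1.25-fold and 1.31-fold of PRP8-WT, with intervals above 1 when reads are taken as independent. The prp8-N1869D pair were at 1.05-fold and 0.969-fold, with intervals that include 1. The prp8-V1870N excess rested on few sites: it was 1.03-fold (0.927 to 1.13) without the ECM33 and RPL6B sites and 0.922-fold (0.818 to 1.04) outside ribosomal protein genes. No replicate bears on the first 3.

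Aberrant sites inside introns ordered the strains otherwise. Their share was 0.382% in PRP8-WT, 0.346% in prp8-V1860N, 0.283% for prp8-V1860D, 0.413% and 0.439% in the prp8-N1869D pair and 0.398% in prp8-V1870N. Upstream sites thus gave 8.81% of upstream plus inside reads in PRP8-WT, 12.5% in prp8-V1860N, 14.0% for prp8-V1860D, 8.56% and 7.53% in the prp8-N1869D pair and 10.8% in prp8-V1870N. The number of upstream sites, thinned to 1222720 lariat reads per sample, was 113 in PRP8-WT, 129, 136 and 128 in prp8-V1860N, prp8-V1860D and prp8-V1870N, and 118 and 104 in the prp8-N1869D pair, against 195, 171, 184, 163, 118 and 110 as found.

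**Figure D3:**
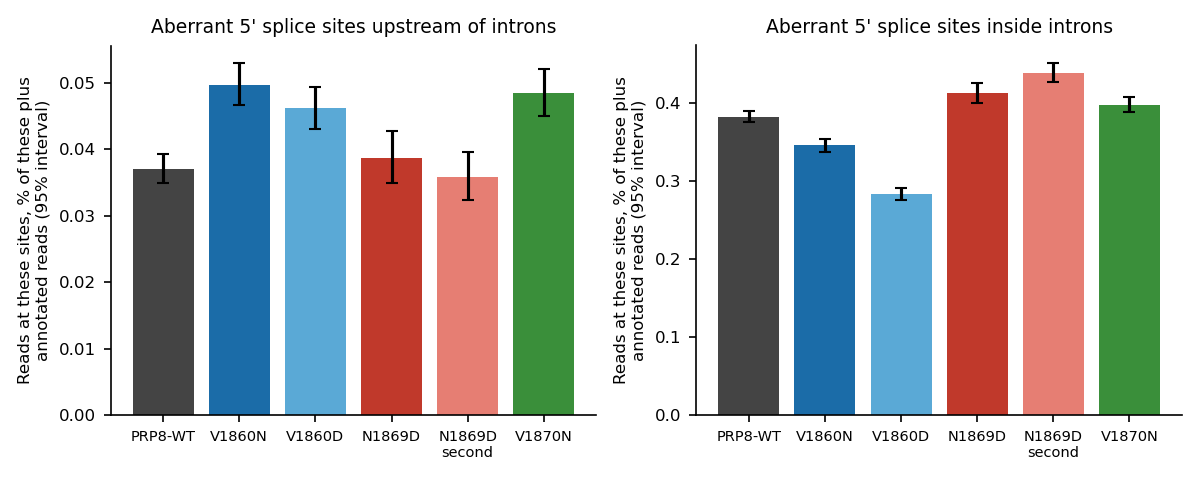
Reads at upstream (left) and inside (right) aberrant sites, in percent of those plus annotated reads, per sample, with exact 95% intervals. Upstream, prp8-V1860N, prp8-V1860D and prp8-V1870N (0.0462 to 0.0498%) stand above PRP8-WT and both prp8-N1869D samples (0.0359 to 0.0388%); inside introns, prp8-V1860D is lowest at 0.283% and the prp8-N1869D pair are highest. The left and right axes differ in scale.

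The mixture of annotated introns differed between the samples. Ribosomal protein introns gave 67.5% of annotated reads of PRP8-WT and 59.4% and 55.2% of those of the prp8-N1869D pair, and they had the lower upstream share. Upstream reads per annotated read were therefore also compared within introns, as a Mantel-Haenszel ratio over all introns with upstream reads, with intervals that take annotated counts as fixed. The within-intron fold over PRP8-WT was 0.67 (0.595 to 0.745) in prp8-N1869D and 0.67 (0.606 to 0.748) for its second sample. It was 1.11 (1.02 to 1.21) in prp8-V1860N, 1.14 (1.05 to 1.25) for prp8-V1860D and 1.09 (0.999 to 1.19) in prp8-V1870N. Leaving out any 1 of the 179 introns kept the prp8-N1869D folds between 0.625 and 0.705 and, for the second sample, between 0.576 and 0.722. The same omissions gave 1.07 to 1.17 in prp8-V1860N and 1.10 to 1.21 for prp8-V1860D, whereas prp8-V1870N ran from 0.929, without RPL6B, to 1.15. Without the ECM33 and RPL6B sites prp8-V1870N was at 0.806 (0.731 to 0.888), below PRP8-WT. The same omission left prp8-V1860N at 1.08 (0.990 to 1.18), with an interval that includes 1, and prp8-V1860D at 1.11 (1.02 to 1.22). The prp8-N1869D pair were then at 0.601 (0.534 to 0.676) and 0.572 (0.511 to 0.640). For inside sites the within-intron folds were 1.54 and 2.13 in the prp8-N1869D pair, 1.38 in prp8-V1870N, 0.960 in prp8-V1860N and 0.857 for prp8-V1860D.

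Within-intron folds were set out by gene class and distance. Outside ribosomal protein genes, sites under 200 nt away were at 0.528 (0.457 to 0.611) and 0.547 (0.480 to 0.625) in the prp8-N1869D pair, 0.736 (0.653 to 0.830) in prp8-V1870N, 1.07 in prp8-V1860N and 1.0 for prp8-V1860D. More distant sites of these introns were at 0.609 (0.417 to 0.891) and 0.530 (0.363 to 0.773) in the prp8-N1869D pair, close to the nearer ones, while prp8-V1870N, prp8-V1860N and prp8-V1860D had 0.973, 0.789 and 0.996, with intervals that include 1. In ribosomal protein introns, sites under 200 nt away had folds of 1.24 (1.03 to 1.51) in prp8-V1860N and 1.37 (1.13 to 1.66) for prp8-V1860D. The prp8-N1869D pair had 0.794 and 0.951 there and prp8-V1870N 1.11, with intervals that include 1. In the same introns, sites at 200 nt and beyond were higher than in PRP8-WT in all 5 mutant samples. Their folds were 1.47 (1.12 to 1.94) in prp8-V1860N, 1.81 (1.39 to 2.36) for prp8-V1860D, 2.16 (1.58 to 2.97) and 2.0 (1.45 to 2.77) in the prp8-N1869D pair and 4.47 (3.56 to 5.60) in prp8-V1870N. Without the RPL6B site they were 1.44, 1.70, 1.70, 1.74 and 2.28, each with an interval above 1. The RPL16B site at the end of the window was kept in these folds, and its share was also higher in all 5 mutant samples. It had 17 reads in PRP8-WT and 25, 38, 11, 10 and 30 in the mutant samples, in the same order. Whether the folds stay above 1 without both sites was not tested. The 87 distant sites of ribosomal protein introns had 108 reads in PRP8-WT, a sample that all 5 folds share.

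**Figure D4:**
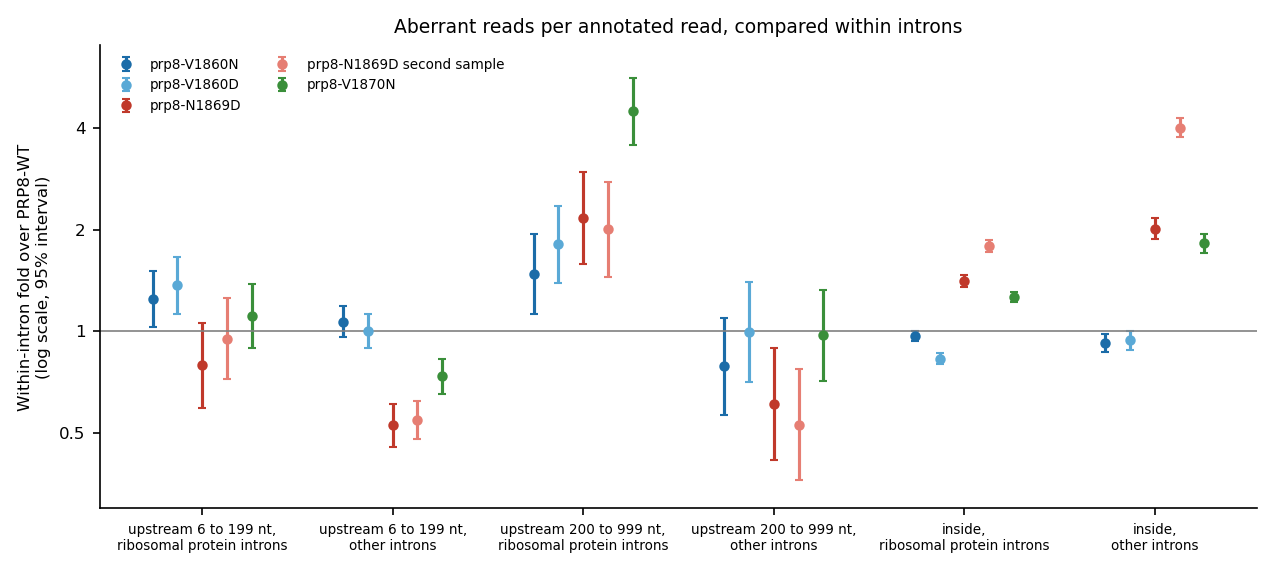
Within-intron folds over PRP8-WT (log scale, 95% intervals) for the 5 mutant samples, with upstream sites divided by distance and by ribosomal protein and other introns, beside inside sites. The prp8-N1869D samples lie near 0.5 for upstream sites of other introns at both distances and near 2 for distant sites of ribosomal protein introns, where prp8-V1870N reaches 4.47.

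Sequence classes were compared in the same way. Sites with GTATGT had within-intron folds of 0.656 (0.519 to 0.829) in prp8-V1860N, 0.485 (0.368 to 0.640) for prp8-V1860D, 0.576 and 0.431 in the prp8-N1869D pair and 0.672 (0.522 to 0.867) in prp8-V1870N, so all 5 mutant samples were below PRP8-WT. MTR2 and VMA9 gave 97 and 39 of the 204 reads in PRP8-WT, and without them the folds were 0.921, 0.676, 0.880, 0.720 and 1.15, each with an interval that includes 1. Sites with 5 of the 6 bases were at 1.27 (1.10 to 1.46) in prp8-V1860N, 1.16 (0.993 to 1.35) for prp8-V1860D, 0.532 and 0.621 in the prp8-N1869D pair and 0.806 (0.684 to 0.949) in prp8-V1870N. Sites with GT and 2 to 4 consensus bases were at 1.14 (1.01 to 1.30) in prp8-V1860N, 1.30 (1.14 to 1.48) for prp8-V1860D, 0.702 and 0.607 in the prp8-N1869D pair and 1.12 (0.987 to 1.27) in prp8-V1870N. Sites without GT were above PRP8-WT in all 5, at 1.73, 2.50, 2.37, 3.88 and 6.27 in the same order. Without the ECM33 site they were 0.764, 1.95 (1.25 to 3.03), 1.03, 0.886 and 2.31 (1.50 to 3.56), so the folds above 1 in prp8-V1860N and both prp8-N1869D samples rested on that site.

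Site by site, upstream sites were compared where at least 20 reads lay in both samples together, as reads per annotated read of the intron with a pseudocount of 0.5 reads. In prp8-V1860N, 4 of 22 upstream sites were at least 2-fold higher and 2 at least 2-fold lower, where 13.1% and 8.33% of all 84 aberrant sites so tested, upstream and inside, passed the same limits. In prp8-V1860D 4 of 21 were higher and 3 lower, against 9.09% and 29.9% of all. In prp8-N1869D 3 of 20 were higher and 10 lower, against 28.8% and 16.4%, and for its second sample 3 of 18 and 7, against 31.1% and 13.5%. In prp8-V1870N 3 of 22 were higher and 8 lower, against 15.9% and 12.2%. The median log2 ratio of upstream sites was -0.91 in prp8-N1869D and -0.32 for its second sample, where all aberrant sites had 0.36 and 0.17. It was -0.22, 0.14 and -0.32 in prp8-V1860N, prp8-V1860D and prp8-V1870N, where all had -0.16, -0.43 and 0.18. Counting noise passes the 2-fold limit at sites with few reads.

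**Figure D5:**
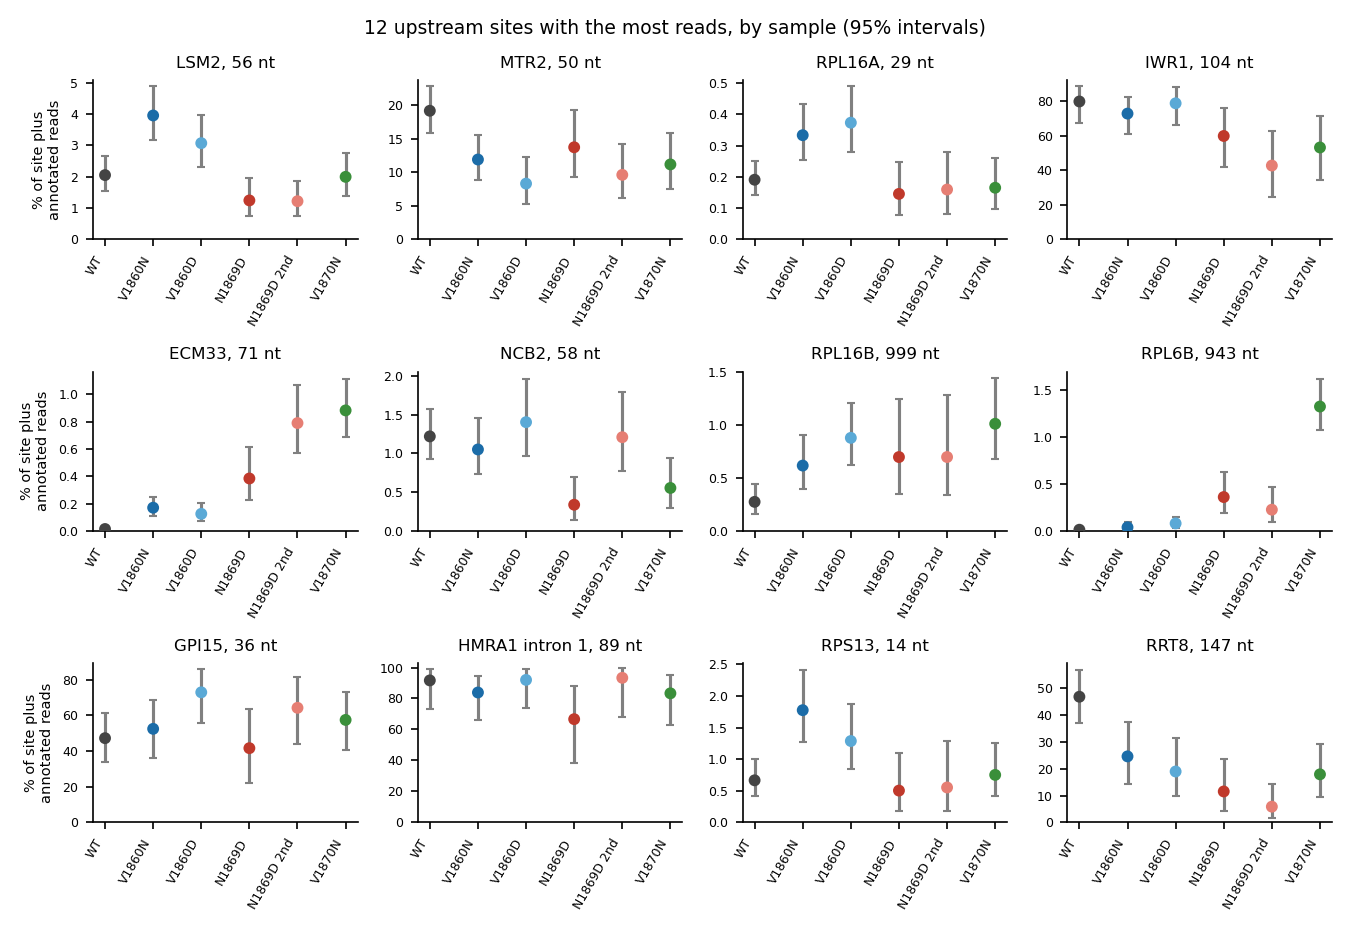
Reads at each of the 12 upstream sites with the most reads, in percent of site plus annotated reads of the intron, per sample with exact 95% intervals; vertical axes start at 0 and differ between panels. RRT8 and MTR2 are highest in PRP8-WT, ECM33, RPL6B and RPL16B are lowest there, and LSM2, RPL16A and RPS13 are highest in the V1860 mutants.

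RRT8, a gene of spore wall formation, was among the sites that were lower in all 5 mutant samples. Its site at 147 nt has the same GTAAGT as the annotated site. It took 51 reads beside 58 annotated in PRP8-WT, or 46.8% (37.2 to 56.6), 15 and 46 in prp8-V1860N, 11 and 47 for prp8-V1860D, 6 and 46 in prp8-N1869D, 4 and 64 for its second sample, with 12 and 55 in prp8-V1870N. The mutant shares of 5.88 to 24.6% did not overlap the value of PRP8-WT, and the interval of prp8-V1860N, 14.5 to 37.3%, met its lower edge. The first 5' splice site of VMA9 joined to the second branch point had 39 reads in PRP8-WT, 14, 15 and 12 in prp8-V1860N, prp8-V1860D and prp8-V1870N and 2 and 5 in the prp8-N1869D pair. Its log2 ratio to PRP8-WT was -1.11, -1.21, -1.57, -3.54 and -3.08. MTR2, a partner of the main mRNA export receptor, has the consensus GTATGT upstream and GTACGT at its annotated site. Its upstream share was 19.1% (15.8 to 22.8) in PRP8-WT, 11.9% in prp8-V1860N, 8.30% for prp8-V1860D, 13.7% and 9.61% in the prp8-N1869D pair and 11.2% in prp8-V1870N.

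In PRP8-WT, IWR1 gave 48 upstream reads beside 12 annotated, a share of 80.0% (67.7 to 89.2), with similar shares of 73.0% and 78.9% in prp8-V1860N and prp8-V1860D. The prp8-N1869D samples had 60% (42.1 to 76.1) and 42.9% (24.5 to 62.8), and prp8-V1870N had 53.3% (34.3 to 71.7). At NCB2, a subunit of a transcription repressor that binds the TATA factor, the site at 58 nt had a share of 1.22% in PRP8-WT, 1.05% in prp8-V1860N, 1.4% for prp8-V1860D and 0.555% in prp8-V1870N. Its shares in the prp8-N1869D pair, 0.338% and 1.21%, were apart, so this strain had no common value. HMRA1 intron 1 at 89 nt took 66.7% (38.4 to 88.2) in prp8-N1869D but 93.3% (68.1 to 99.8) for its second sample. It took 91.7% (73.0 to 99.0) in PRP8-WT and 83.3 to 92.0% in the other mutants. Per annotated read it was 0.212-fold of PRP8-WT in the first prp8-N1869D sample, on 5 and 2 annotated reads. The low share was not seen in the second sample. GPI15 at 36 nt took 47.3% (33.7 to 61.2) in PRP8-WT and 41.7% and 64.3% in the prp8-N1869D pair. Its share was highest, 73.0% (55.9 to 86.2), for prp8-V1860D, which was 2.92-fold of PRP8-WT per annotated read. These intervals overlapped, which does not show that the shares were alike.

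RPL6B at 943 nt had the highest ratio to PRP8-WT in prp8-V1870N. RPL6B encodes a protein of the large ribosomal subunit. Its site had 3 reads beside 22499 annotated in PRP8-WT, 5 in prp8-V1860N, 9 for prp8-V1860D, 12 and 7 in the prp8-N1869D pair and 95 beside 7079 in prp8-V1870N. The shares were 0.0133% (0.00275 to 0.0390) in PRP8-WT, 0.361% and 0.227% for the prp8-N1869D pair and 1.32% (1.07 to 1.62) in prp8-V1870N, whose ratio to PRP8-WT was 86.7-fold (33.4 to 497) with the pseudocount. ECM33 at 71 nt had 4 reads in PRP8-WT, 25 in prp8-V1860N, 15 for prp8-V1860D, 17 and 42 in the prp8-N1869D pair and 71 in prp8-V1870N. Its share was 0.0144% (0.00392 to 0.0369) in PRP8-WT and 0.125 to 0.883% in the mutants. RPL16B at the end of the window had a share of 0.274% (0.160 to 0.438) in PRP8-WT, 0.615% in prp8-V1860N, 0.876% for prp8-V1860D, 0.696% in both prp8-N1869D samples and 1.01% (0.682 to 1.44) in prp8-V1870N.

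LSM2, RPL16A and RPS13 had their highest shares in the prp8-V1860 mutants. At LSM2 the share was 2.05% (1.56 to 2.65) in PRP8-WT, 3.96% (3.16 to 4.88) in prp8-V1860N and 3.07% (2.32 to 3.98) for prp8-V1860D, and 1.25%, 1.22% and 2.0% in the prp8-N1869D pair and prp8-V1870N. RPL16A had 0.191% (0.142 to 0.252) in PRP8-WT, 0.333% and 0.373% in the prp8-V1860 mutants, 0.146% and 0.160% in the prp8-N1869D pair and 0.165% in prp8-V1870N. RPS13, of the small ribosomal subunit, had 0.667% in PRP8-WT, 1.78% in prp8-V1860N, 1.29% for prp8-V1860D and 0.505 to 0.753% in the other mutant samples. EPT1, an enzyme of phospholipid synthesis, followed at 57 nt with 9 reads beside 566 in PRP8-WT, 24 beside 576 in prp8-V1860N and 20 beside 385 for prp8-V1860D.

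Spread between samples of one strain could be seen only in the prp8-N1869D pair. As it may be technical, it may not cover the spread between cultures. The 2 prp8-N1869D samples had 118 and 110 sites, of which 59 were in both, 50% and 53.6% of each. Of the 12 sites with at least 20 reads over both, 4 were at least 2-fold higher and 1 at least 2-fold lower in the second sample. LSM2, RPL16A, RPL16B, YNL050C and YML6, a mitochondrial ribosomal protein, differed by at most 0.19 on the log2 scale. APS3, an adaptor complex subunit, had 23 reads beside 682 annotated in the first sample and 3 beside 746 in the second, so its 3.22-fold ratio to PRP8-WT in the first was not shared by the second. RPL7B intron 1 at 50 nt was 4.21-fold above PRP8-WT in the second sample, with 9 of its reads in technical library 1 and 2 in the other. Technical libraries also differed at GPI15, with 16 upstream and 2 annotated reads in library 1 and 2 and 8 in library 2, and at IWR1, with 1 and 5 against 11 and 11. Of 12 sites with at least 10 reads over both technical libraries, 1 was at least 2-fold higher and 5 at least 2-fold lower in the second library.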

How the data were processed

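Per the file headers, the deposited values are counts of filtered reads across branch points, listed by splice site pair and by annotated intron, and the authors let annotated counts take in branch positions up to 2 nt away. Trimmomatic, Bowtie2 and build R64 are named in the submitters' processing notes; versions, filters and strand assignment were not given in the sources used here. Another 65 columns of per-sample values were not used.

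Pairs were matched to introns by the stated rule, and branch points of one 5' splice site were summed. The deposited annotated counts equalled the sum of matching pairs in 280 of 280 introns, and 279 of 280 began with GT in the R64 reference used here, from which sequences and gene positions were read. Symbols were matched for 278 of 280 introns. At 9 sites, with 57 reads, the first 20 bases occur elsewhere in the genome as an exact copy. Groups were taken from the labels. With 1 sample a group no strain was tested; shares have exact Clopper-Pearson intervals, pooled folds conditional exact intervals and within-intron folds asymptotic Mantel-Haenszel intervals at 95%, with annotated counts taken as fixed. Upstream and inside shares were compared over 6 samples by an exact sign-flip permutation test. Site ratios used a pseudocount of 0.5 reads and at least 20 reads over both samples. Thinning used the expected number of sites.

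Named sites and introns were the 12 sites of highest read count, the 3 highest and 3 lowest ratios per mutant, the 10 introns with the most reads and those with the most sites, sites within 5 nt of another annotated 5' splice site, sites at the ends of the window, and up to 2 introns per list. Sites without GT and the GTATGT sites within 200 nt, far sites in other genes, start codon sites and sites named for the spread between samples were added after their values were seen. Members and lists were chosen with earlier results of these data known. The software was scipy 1.17.1, pandas 2.3.3, numpy 2.4.6 and matplotlib 3.10.9 under Python 3.11.15; alternative library sizes came from DESeq2 1.42.0 and edgeR 4.0.16 under R 4.3.3. Matching, within-intron folds and the permutation test were tested on simulated data. Alternatives covered the branch tolerance, reads per site, denominators, leading introns, distance, sites at other introns, GT and technical libraries; within-intron folds, the division by gene class, distance and sequence, and the omission of ECM33, RPL6B, MTR2 or VMA9 were chosen after seeing the data.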

Additional observations from a re-analysis of the deposited data

How the results depend on the processing

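No analysis paired between strains was possible because no strain except prp8-N1869D has more than 1 sample and no replicate number is shared between strains. The comparison of upstream with inside sites was paired within samples. The prp8-V1860N fold was between 1.26 and 1.38 under 15 alternatives and 1.11 within introns. The prp8-V1860D fold was between 1.14 and 1.31 under 15 and 1.10 in introns outside ribosomal protein genes. The prp8-N1869D fold was between 0.937 and 1.13 under 12; it was 0.878 with edgeR TMM sizes, 0.850 with DESeq2 size factors, 0.666 within introns and 0.845 outside ribosomal protein genes. The second prp8-N1869D sample was at 0.824, 0.790, 0.674 and 0.721 under the same 4, at 0.854 without the ECM33 and RPL6B sites, at 0.942 to 0.992 without 1 technical library and at 0.864 to 1.03 under the others.

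The prp8-V1870N fold moved most: 1.13 with the exact branch coordinate, 1.19 with DESeq2 size factors, 1.58 without the 5 introns with the most upstream reads, 1.07 for sites under 500 nt, 1.15 for GT sites alone, 1.09 within introns, 1.03 without the ECM33 and RPL6B sites and, reversed, 0.922 outside ribosomal protein genes. Why these alternatives moved it was not tested, except that RPL6B and ECM33 gave 95 and 71 of its 752 upstream reads.

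The GT share of sites stayed 4.56 to 10.7 points higher upstream under 8 alternatives, at an adjusted exact permutation p of 0.09375 in each. The GT share of reads, -1.31 points, became -8.28 with the exact branch coordinate (adjusted exact permutation p 0.046875). It reversed to 0.302 at sites with at least 5 reads, to 6.87 without the 5 leading introns of each class and to 3.32 without the ECM33 site (adjusted exact permutation p 0.046875), and was -0.836 and -1.71 without technical library 1 or 2. The share at the exact branch coordinate reversed to -0.685 with annotated reads weighted by upstream reads and was 1.36 points without the 5 leading introns. A pseudocount of 1 kept the direction of all 30 named site ratios.

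Without technical library 1, 0 of 15 upstream sites were at least 2-fold higher in the second prp8-N1869D sample and 8 lower. Of all 66 aberrant sites so tested, 22 were higher and 12 lower. Without library 2, 4 of 17 upstream sites were higher and 6 lower, against 20 and 11 of all 70. Depth limits single sites: 189 of 410 had 1 read, and a site not seen in a sample was not detectable at its depth, not absent.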

Other observations

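Of the sites before the start codon, 30 lay antisense to another gene. Among them, the YML6 site at 890 nt, with 77 reads, and the RPL43A site at 844 nt, with 23 reads at GTATGT, lay antisense to the genes RPS17A and PUF2. RPL24B at 500 nt and RPL39 at 385 nt also have GTATGT, with 27 and 22 reads. The RPL24B share was 0.0277% in PRP8-WT and 0.00440 to 0.0245% in the mutant samples, and the RPL39 share was 0.0598% and 0.00877 to 0.0614%. Introns whose annotated site is GTATGT had upstream reads in 137 of 217 cases, with 0.0357% of upstream reads per annotated read, and those with another annotated site in 42 of 63, with 0.0785%. In 8 introns, MTR2, CQD1, RPL43A, RPS30A, REC107, GIM4, MEI4 and ATG44, an upstream site matched more consensus bases than the annotated one. These were chosen after their values were seen and carry no test.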
